A study of Mus musculus with 2 samples.

Results

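The intervals described here are those that the TCF1 map of immature γδ thymocytes lists around 6 genes that regulate commitment to the T lineage: Notch1, Gata3, Bcl11b, Tox, Satb1 and Ikzf1. They were taken by position alone, as every listed interval overlapping a fixed window on the mm9 genome by at least 1 bp. The genes and windows themselves were chosen with earlier results of these data known. The windows were chr2:26260000-26410000 for Notch1, chr2:9680000-9900000 for Gata3, chr12:109050000-109300000 for Bcl11b, chr4:6560000-6970000 for Tox, chr17:51820000-52030000 for Satb1 and chr11:11530000-11720000 for Ikzf1. Together they held 116 of the 104683 intervals of the list (0.111%), and 0 of the 116 were cut by a window edge.

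The series held 1 library of chromatin immunoprecipitated with anti-TCF1 and 1 input library without antibody, which was not analysed here. Both came from γδ T cells sorted from the thymus of C57BL/6 mice that lack TCRβ, carry a Sox13 transgene (Sox13tg+) and hold ECFP knocked into 1 Sox13 allele (Sox13 ECFP KI/+). The sorted cells expressed CD24 and had low or no CFP, the fluorescent reporter of the Sox13 locus. The sources used here do not name the promoter that drives the transgene, the age of the mice or the number of mice pooled, and a list of bound intervals cannot be checked against expressed cell type markers. With 1 library there was no replicate, no comparison between conditions and no test. The number of reads is unknown, so an interval that is not listed was not detected at this depth and is not shown to be absent.

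TCF1, the HMG-box factor encoded by Tcf7, is switched on in early thymic progenitors downstream of Notch signalling. It acts with other factors to open and activate T lineage genes while access to other fates closes. Notch1 is the receptor that starts this program in the thymus. Gata3 and Bcl11b encode zinc finger factors that establish and then fix T cell identity. Tox encodes another HMG-box protein of thymocyte development, Satb1 encodes a protein that organises chromatin in thymocytes, and Ikzf1 encodes Ikaros, a zinc finger regulator of lymphoid development.

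No mm9 sequence was used, so the bases under the intervals are not shown. Promoter sequences from RefSeq (GRCm38.p6, 250 bases before to 50 after a gene start) were at hand for 5 of the 6 genes, in 10 windows, and Tox had no entry in that table. Their positions are on another build than the intervals, so whether an interval covers any of them was not determined. The letters TCAAAG, the core of TCF/LEF sites, were searched on both strands and occurred in 16.0% of the 32851 promoters of the table. Of the 10 member promoters, only that of Bcl11b held them, as CTTTGA on the gene's strand, beginning 89 bases before the start. It is shown because Bcl11b also held the highest-scoring interval of the 6 windows. The capitals mark the TCF/LEF core, and the stretch is chr12:108003365-108003664 of GRCm38.p6, minus strand:
Bcl11b promoter: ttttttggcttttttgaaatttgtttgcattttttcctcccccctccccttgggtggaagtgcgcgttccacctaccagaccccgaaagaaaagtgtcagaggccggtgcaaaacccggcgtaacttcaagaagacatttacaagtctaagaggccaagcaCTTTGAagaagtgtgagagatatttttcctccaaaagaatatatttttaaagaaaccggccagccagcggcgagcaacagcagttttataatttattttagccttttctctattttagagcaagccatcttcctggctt

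The related core ACAAAG, which SOX factors as well as TCF/LEF factors can read, occurred in 18.7% of all promoters of the table. It stood in both Ikzf1 promoters and in 2 of the 5 Satb1 promoters, which overlap and share 1 match. These stretches of 30 bases are shown because the cells carry a Sox13 transgene and SOX13 is an HMG-box factor. Capitals mark the core, written as CTTTGT on the gene's strand, at chr11:11685807-11685836 and chr11:11689943-11689972 (plus strand) and chr17:51812185-51812214 (minus strand) of GRCm38.p6:
Ikzf1 first promoter: tgcggctgcaaaCTTTGTgtgcgcggcccg
Ikzf1 second promoter: gctgttggtcttCTTTGTaggcctagcagg
Satb1 promoter: taacgggttccgCTTTGTttttacgactcc
The RUNX core TGTGGT, present in 16.8% of all promoters, stood in 0 of the 10 member promoters. None of these matches shows a bound site, and a missing match says only that the letters are not in that window.

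TCF1 intervals were dense around Notch1 and Bcl11b, intermediate around Gata3, Ikzf1 and Satb1, and sparse around Tox. The Bcl11b window held 41 intervals, Notch1 33, Gata3 16, Satb1 10, Ikzf1 10 and Tox 6. Because the windows differ in length, density is the fairer measure. It was 220 intervals per Mb around Notch1 (95% Poisson interval 151 to 309), 164 around Bcl11b (118 to 222), 72.7 around Gata3 (41.6 to 118), 52.6 around Ikzf1 (25.2 to 96.8), 47.6 around Satb1 (22.8 to 87.6) and 14.6 around Tox (5.37 to 31.9). The 95% intervals of neighbours in this order overlapped in all 5 cases, for Bcl11b and Gata3 only where they met near 118, which does not show that the neighbours are alike, and no step was tested. The Notch1 and Bcl11b densities lay beyond the intervals of Gata3, Ikzf1, Satb1 and Tox. The Poisson intervals express counting error alone and are too narrow where intervals cluster, since clustered intervals are not independent.

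**Figure D1:**
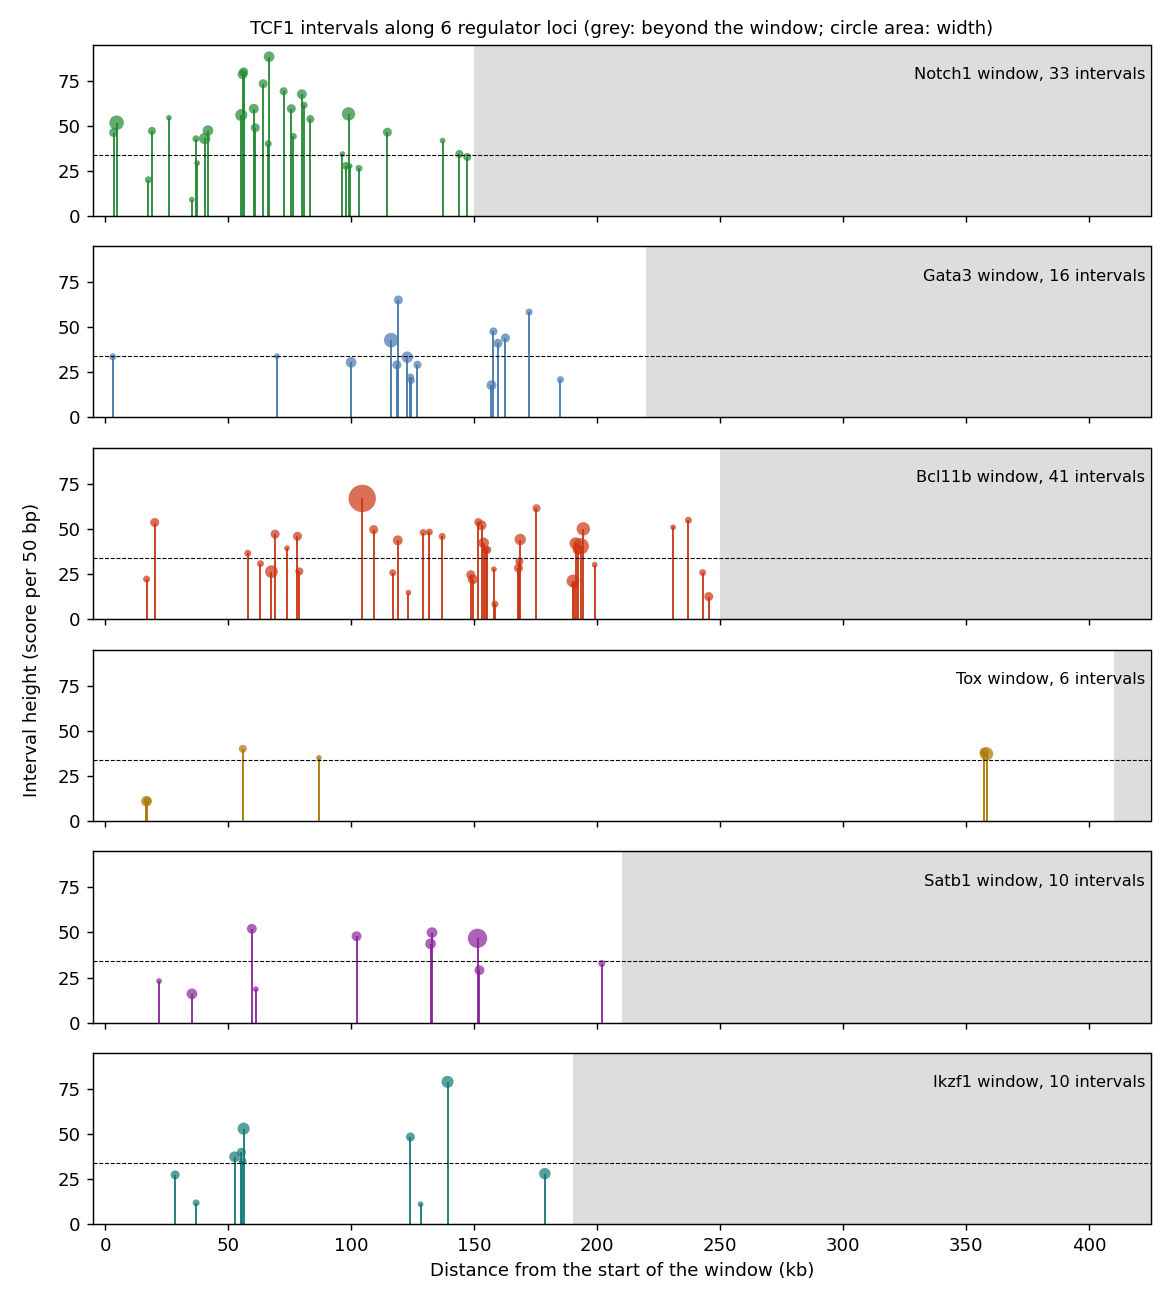
Height of each TCF1 interval (score per 50 bp, vertical axis) against its distance from the start of the window in kb, for the 6 windows. Circle area shows width, the dashed line is the median of the whole list (34.0) and grey lies beyond the window. The 2300 bp interval of Bcl11b, the tall cluster of Notch1 and the empty 270 kb of Tox stand out.

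Each window was set beside all windows of its own length on its own chromosome, placed end to end from it. Around Notch1, the 33 intervals compared with a median of 4 in 1190 windows of 150 kb on chromosome 2 (quartiles 2 and 8, highest 52), and 19 windows (1.60%) held at least as many. Around Bcl11b, the 41 intervals compared with a median of 6 in 471 windows of 250 kb on chromosome 12 (quartiles 3 and 11, highest 101), and 9 windows (1.91%) held at least as many. Both windows therefore lay near the upper end of their chromosomes, at 8.25 and 6.83 times the median window.

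The other 4 windows did not stand apart in this way. Around Gata3, the 16 intervals compared with a median of 6 on chromosome 2, and 155 of 810 windows of 220 kb (19.1%) held at least as many. Around Satb1, 10 intervals compared with a median of 6, and 155 of 437 windows of 210 kb on chromosome 17 (35.5%) held at least as many. Around Ikzf1, 10 intervals compared with a median of 7, and 263 of 623 windows of 190 kb on chromosome 11 (42.2%) did so. The Tox window was emptier than most of its size, with 6 intervals against a median of 12, and 306 of 370 windows of 410 kb on chromosome 4 (82.7%) held at least as many.

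**Figure D2:**
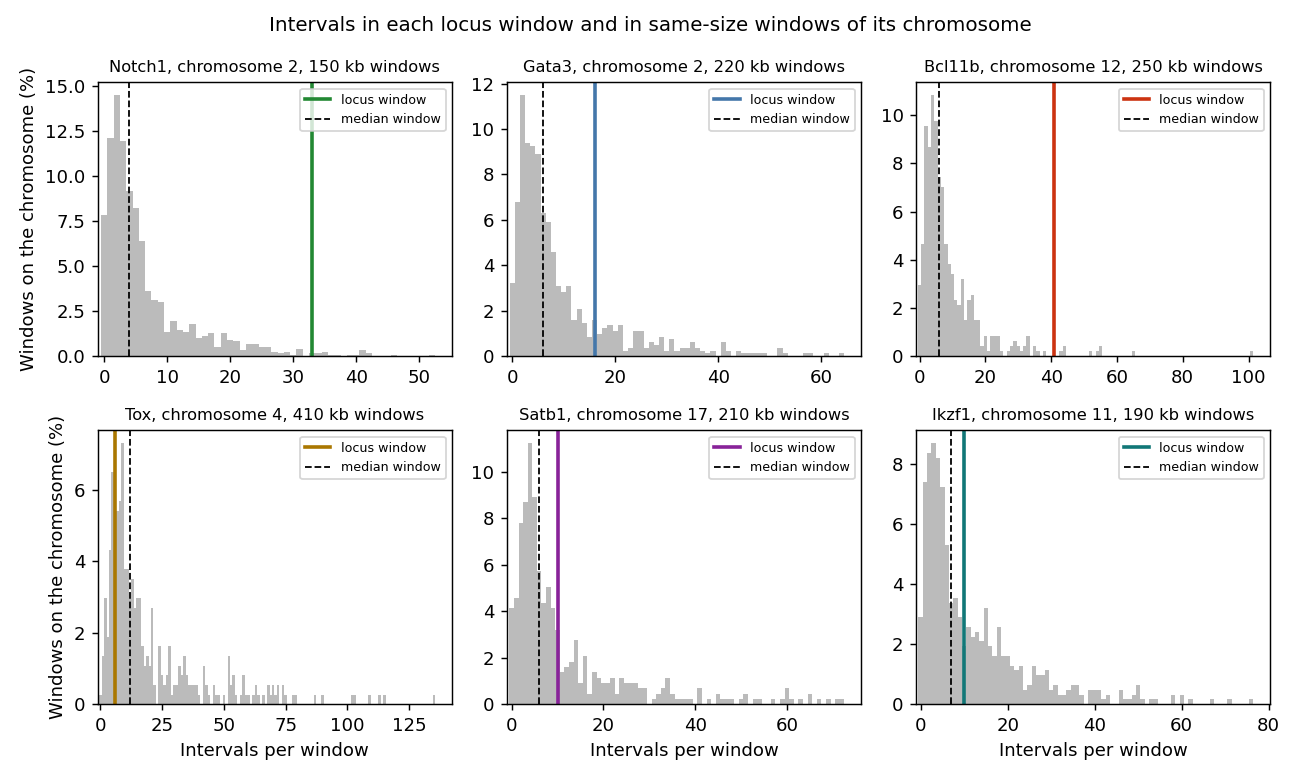
Share of same-size windows on the chromosome (vertical axis, percent) by the number of intervals they hold, for each locus. The coloured line is the locus window and the dashed line the median window. The line lies far to the right for Notch1 (33 against a median of 4) and Bcl11b (41 against 6), and left of the median for Tox (6 against 12).

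Density against the immediate surroundings gave another order. The Satb1 window, unremarkable on its chromosome (56.6 intervals per Mb), lay in a sparse stretch. The 500 kb on each side of it held 9 and 5 intervals, so its 47.6 per Mb was 3.40 times the 14.0 per Mb of its flanks (95% Poisson interval of the flanks 7.65 to 23.5). The Gata3 window was 2.35 times as dense as its flanks, which held 6 intervals before and 25 after it. For Ikzf1 the ratio was 2.02, with 11 intervals before and 15 after, although chromosome 11 as a whole had 63.5 per Mb. The Poisson intervals of window and flanks still overlapped at all 3, narrowly for Satb1 and Gata3, whose windows had lower bounds of 22.8 and 41.6 per Mb against upper bounds of 23.5 and 44.0 in the flanks.

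The Notch1 window lay in a broader dense region, and the Bcl11b window had one on its later side. The flanks of Notch1 held 76 and 52 intervals, or 128 per Mb together, and the ratio was 1.72, with window and flank intervals that met at 151 and 152 per Mb. Bcl11b was 1.39 times as dense as its flanks together, which were unequal. The 500 kb before its window held 21 intervals, or 42 per Mb against 36.7 on chromosome 12, and the 500 kb after it held 97. The fullest 50 kb of that later flank, 150 to 200 kb beyond the window, held 29 intervals. The same-size window directly after Bcl11b held 65 intervals, more than the 41 of the locus window. Tox was the exception in the other direction, with 0.542 times the density of its flanks, which held 18 and 9 intervals. The Poisson intervals of window and flanks overlapped for Tox (5.37 to 31.9 and 17.8 to 39.3 per Mb) and for Bcl11b (118 to 222 and 97.7 to 141).

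**Figure D3:**
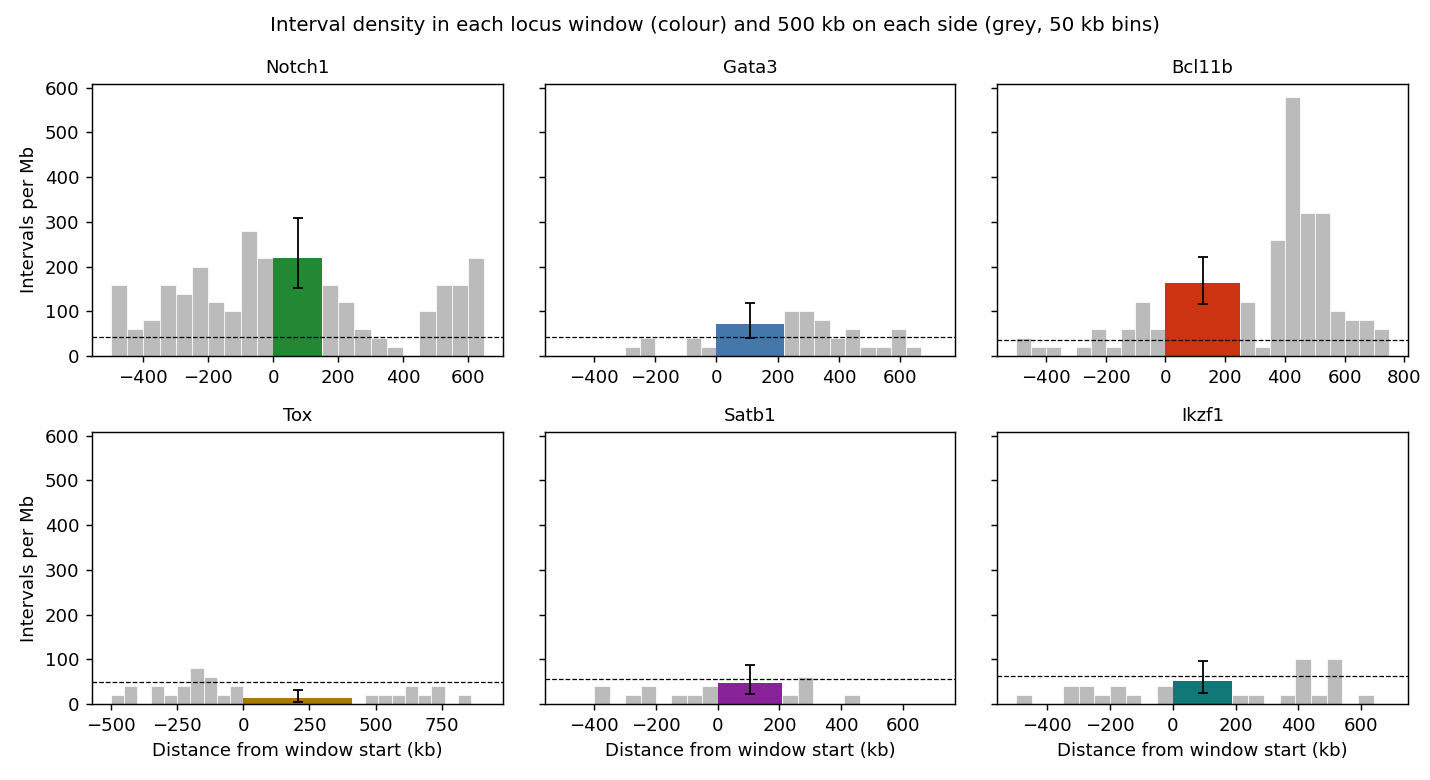
Interval density (per Mb) in each locus window (coloured bar with its 95% Poisson interval) and in 50 kb bins over 500 kb on each side (grey), by distance from the window start in kb. The dashed line is the density of the whole chromosome. Satb1 rises out of sparse flanks, while Bcl11b is followed by bins denser than its own 164 per Mb.

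By order in the RefSeq gene table of GRCm38, the nearest protein-coding neighbours are Sec16a and Egfl7 for Notch1, Celf2 and Taf3 for Gata3, the predicted gene Gm52008 and Setd3 for Bcl11b, Nsmaf and Car8 for Tox, Tbc1d5 and Kcnh8 for Satb1, and 4930512M02Rik and Fignl1 for Ikzf1. The table is on another build, so how far a window reaches into these genes, and which intervals lie in promoters, exons or introns, was not determined. The nearest interval left out at Bcl11b ended 3.85 kb before the window with a height of 62.9, and that at Notch1 ended 2.55 kb before it with a height of 27.7, so the window edges are not natural borders. Any of the 116 intervals may belong to a neighbour and not to the gene that names its window.

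The score of an interval grows with its width, so a second measure, height, was used, which is the mean score per 50 bp of interval. Across the 116 intervals the median height was 40.0 (quartiles 27.7 and 49.1), beside 34.0 in the whole list (21.5 and 46.1). Without the Notch1 window the median of the other 83 was 37.2. Counted by the upper 10% of the list by height (at least 57.0), the 6 windows held 14 such intervals of 116 (12.1%), against 10% of the list. By score the upper 10% began at 453, and 12 of the 116 (10.3%) passed it, against 10% of the list. By height the share was 9 of 33 (27.3%) around Notch1 and 5 of 83 (6.02%) in the other windows. By score it was 5 of 33 (15.2%) and 7 of 83 (8.43%). Only when pooled are both shares near the background. Wide intervals were likewise no more frequent: 10 of 116 (8.62%) were at least 500 bp wide, against 9.68% of the list.

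Median height was greatest around Notch1 and closer together in the other 5 windows. It was 47.1 around Notch1 (95% order-statistic interval 41.7 to 55.9), 38.6 around Bcl11b (28.3 to 45.9), 38.2 around Satb1 (18.5 to 49.9), 36.2 around Ikzf1 (11.8 to 53.1), 36.1 around Tox (10.9 to 40.0) and 33.6 around Gata3 (22.5 to 44.1). The Notch1 interval did not overlap that of Tox, and its median lay above the upper limits of Bcl11b and Gata3. Neighbours in this order had overlapping intervals, and no difference between windows was tested. Against the rest of its chromosome (35.8), Notch1 was higher by a factor of 1.31, and its interval excluded that median. The order-statistic intervals treat the listed intervals of a window as independent, and they can be too narrow where similar heights cluster, as they did around Notch1. For Bcl11b the factor was 1.20 over a chromosome median of 32.1, which lay inside its interval. For Tox, Satb1, Ikzf1 and Gata3 the factors were 1.03, 1.07, 0.964 and 0.935.

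**Figure D4:**
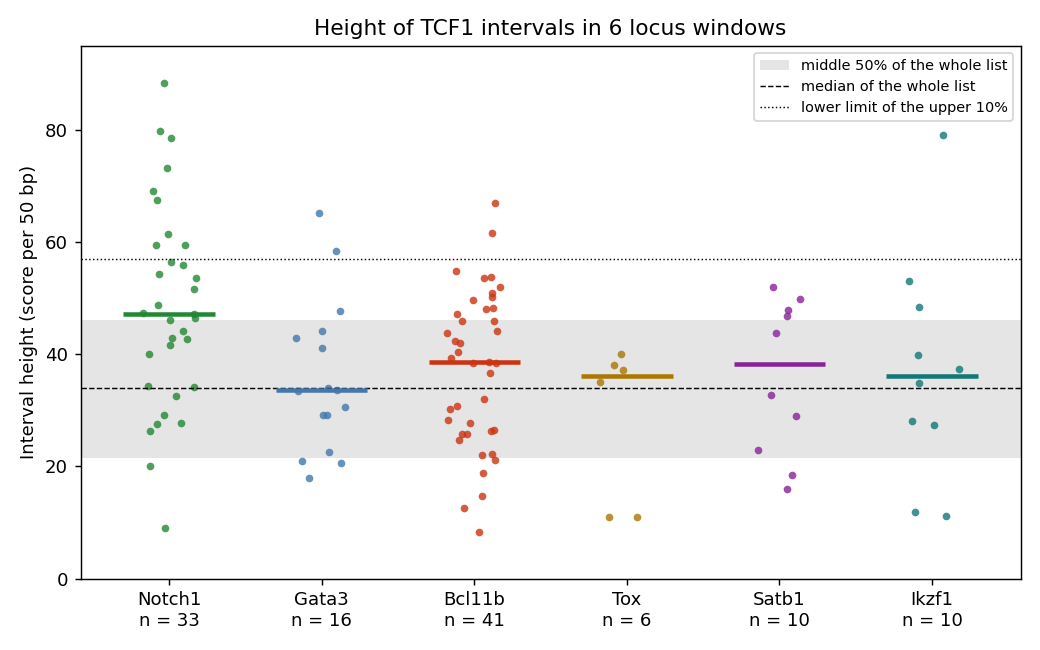
Height of every interval (score per 50 bp) in the 6 windows, with a coloured bar at each median. The grey band is the middle 50% of the whole list, the dashed line its median and the dotted line the lower limit of its upper 10% (57.0). Of the 14 points above the dotted line, 9 are Notch1 intervals.

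Notch1 had the tallest intervals of the 6 loci, and they stood together. Its heights ran from 9.0 to 88.3, and 9 of the 33 were in the upper 10% of the list. All 9 lay in 1 group of 14 intervals, from chr2:26315101-26343500, in which neighbours were at most 10 kb apart. That group had heights from 40.0 to 88.3 with a median of 60.4, and it held 55.7% of the summed score of the window. The tallest interval, chr2:26326451-26326800, was 350 bp wide with a score of 618.25 and a height of 88.3, which ranked 454 of 104683 by height. The next interval before it, chr2:26326201-26326350, ended 100 bp away with a height of 40.0, the closest pair of the locus.

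The highest scores around Notch1 were not all in that group. The highest, 671.25, belonged to chr2:26264301-26264950, 650 bp wide and 51.6 in height, which lay near the start of the window. The second, 622, belonged to chr2:26358651-26359200, 550 bp wide with a height of 56.5. The 3 highest scores made up 23.2% of the summed score of the 33 intervals. The longest stretch without an interval was 22.2 kb, and midpoints of neighbours were a median of 2.79 kb apart, against 7.92 kb on chromosome 2.

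Gata3 had 16 intervals, and 12 of them stood in a pair of groups. The first, chr2:9795951-9807050, held 7 intervals in 11.1 kb with a median height of 29.2. It contained the widest and highest-scoring interval of the locus, chr2:9795951-9796600 (650 bp, score 558, height 42.9), and the tallest, chr2:9799051-9799300 (250 bp, score 326, height 65.2). The second group, chr2:9836901-9852450, held 5 intervals with a median height of 44.1. Its tallest reached 58.5, which with the 65.2 made 2 intervals of 16 in the upper 10% by height. Together the groups carried 53.4% and 31.2% of the summed score of the window.

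The rest of the Gata3 window was nearly empty. The other 4 intervals stood alone, with heights of 33.7, 34.0, 30.6 and 21.0, and a stretch of 66.7 kb between the first and the second of them held none. The score next in rank, 267.75, was that of chr2:9802601-9803000 in the first group. The closest pair, 200 bp apart, lay in the same group and had scores of 67.5 and 61.75.

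The Bcl11b window held the most conspicuous single interval of the 6 loci. It was chr12:109153351-109155650, 2300 bp wide, with a score of 3083.25 and a height of 67.0. It was the highest-scoring and the widest interval of chromosome 12. In the whole list it ranked 10 of 104683 by width and 40 by score. Of the 39 intervals with higher scores, 36 belonged to the 105 of extreme height (above 132.8, the upper 0.1% of the list). With those left out, it ranked 4 of 104578. Its height was less unusual than its width, at rank 3568 and 1.97 times the median of the list. It was still above the upper quartile (60.2) of list intervals at least 500 bp wide. Width and height both enter the score, and their parts in its rank were not separated. The interval made up 29.6% of the summed score of the window. The next 2 scores of the window were those of chr12:109243001-109243800 (800 bp, score 648, height 40.5) and chr12:109244101-109244650 (550 bp, score 551.5, height 50.1), and no other interval of the window was in the upper 10% of the list by score.

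**Figure D5:**
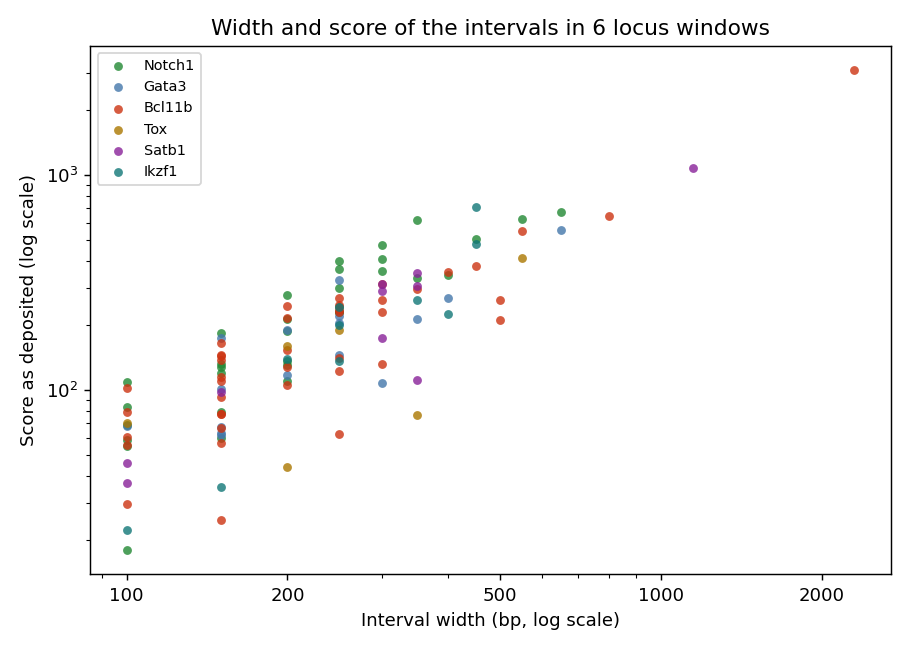
Score as deposited against width in bp, both on log scales, for the 116 intervals, coloured by locus. The interval at the upper right is that of Bcl11b (2300 bp, score 3083.25), followed by that of Satb1 (1150 bp, score 1075.25).

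The other Bcl11b intervals were many and of ordinary height. All 41 fell into 6 groups and none stood alone. In the whole list 30120 of the 104683 intervals stood alone. The fullest group, chr12:109198501-109225450, held 13 intervals in 26.9 kb with a median height of 38.4 and a range from 8.33 to 61.6. The group that begins with the 2300 bp interval, chr12:109153351-109187100, held 8, with a median height of 47.0. A compact group at chr12:109239901-109249050 held 7 in 9.15 kb, and intervals covered 31.1% of it. Of the 41 intervals, 2 (4.88%) were in the upper 10% by height, against 8.39% on the rest of chromosome 12, and 5 (12.2%) were at least 500 bp wide, against 9.68% of the list. Counts this small do not set the locus apart. Of the gaps between neighbours, 13 were shorter than 1 kb, so joining intervals within 1 kb left 28 regions. The closest pair, 50 bp apart, was chr12:109218301-109218500 and chr12:109218551-109218950, with heights of 32.1 and 44.2. Summed over the window, scores were 10.9 times the median of same-size windows, a larger factor than the 6.83 of the count. This was not particular to Bcl11b. The factors of score and count were 13.3 and 8.25 for Notch1, 2.87 and 2.67 for Gata3, 2.66 and 1.67 for Satb1, and 1.70 and 1.43 for Ikzf1. Only Tox went the other way, with 0.441 and 0.5.

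Tox had the fewest intervals in the longest window. In order along chromosome 4, the first pair was chr4:6576601-6576950 and chr4:6577051-6577250, 100 bp apart, with scores of 76.5 and 44 and heights of 10.9 and 11. They were followed by chr4:6615851-6616050 with a score of 160 and a height of 40.0, the tallest of the locus, and by chr4:6646851-6646950 with a score of 70 and a height of 35.0. A stretch of 270 kb followed without a listed interval, 65.9% of the window. Of the gaps between neighbours on chromosome 4, 26 (0.336%) were at least as long.

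The last Tox pair carried most of its signal. It was chr4:6917251-6917500 (score 190.5, height 38.1) and chr4:6918051-6918600 (score 409.5, height 37.2), and it made up 63.1% of the summed score. The second of these was the widest and highest-scoring interval of the locus, at rank 12410 of the list by score. None of the 6 intervals was in the upper 10% by height or by score. Beyond the pair, the next listed interval lay 59.1 kb outside the window and had a height of 4.25.

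Satb1 had 10 intervals, and its signal was concentrated in a single wide one. This was chr17:51970801-51971950, 1150 bp wide, with a score of 1075.25 and a height of 46.7, and 38.4% of the summed score. It ranked 1266 of the list by score, and 504 intervals of the list were at least as wide. With that of Bcl11b it made 2 intervals of 116 at least 1 kb wide, against 0.969% of the list. A further interval, chr17:51972001-51972300 (score 174.5, height 29.1), began 50 bp after it, so both covered 96.7% of a stretch of 1.5 kb.

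The next Satb1 intervals by score were chr17:51952701-51953050 (349.5, height 49.9) and chr17:51879451-51879750 (312.25, height 52.0, the tallest of the locus). The former stood in a pair with chr17:51952101-51952450, whose height was 43.7. A lone interval at chr17:51922051-51922350 had a height of 47.9. The remaining 4 of the locus were lower, with heights of 15.9, 18.5, 23.0 and 32.7. None of the 10 reached the upper 10% of the list by height, and the widest was the only one in the upper 10% by score.

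Ikzf1 also had 10 intervals, with 1 that was tall. At chr11:11668951-11669400, 450 bp wide, the score was 711.25 and the height 79.0, at rank 945 of the list by height. It stood alone, with no other interval within 10 kb, and made up 29.0% of the summed score. A group of 4 at chr11:11582401-11586500 made up another 44.0% in 4.10 kb. It contained the next 2 scores in rank, 477.5 at chr11:11586051-11586500 (height 53.1) and 262.25 at chr11:11582401-11582750 (height 37.5), and the closest pair of the locus, 150 bp apart. The other 2 of the group had heights of 39.9 and 34.9.

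Between that group and the next interval lay 67.4 kb without any. The next was chr11:11653951-11654200 with a height of 48.4, followed by chr11:11658151-11658250 with 11.1. The other 3 Ikzf1 intervals had heights of 27.4, 11.8 and 28.1. Of the 10, 1 was in the upper 10% by height and 2 were in the upper 10% by score, and both of these were 450 bp wide, the greatest width of the locus.

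Pooled over the 6 windows, median height was greater in fuller groups. Intervals in groups of 5 or more (74 intervals) had a median height of 42.6, those in groups of 2 to 4 (29) had 37.5 and those alone (13) had 33.7. In the whole list the corresponding medians were 39.9, 32.4 and 26.4, so the order was that of the list as a whole. Without the Notch1 window the medians of the other windows were 38.6 (47 intervals), 37.3 (24) and 33.2 (12), in the same order. The order did not hold within every window: the fullest Gata3 group, at 29.2, lay below 3 of the 4 lone Gata3 intervals. Of the 14 intervals in the upper 10% by height, 13 were in groups of 5 or more, and 9 of these were the Notch1 intervals described above. The exception was the lone Ikzf1 interval. In groups of 5 or more, 13 of 74 intervals (17.6%) were thus in the upper 10%, against 13.4% for such groups in the whole list. Without the Notch1 window the share was 4 of 47 (8.51%), below that of the list. Height also grew with width. In the 6 windows the median was 29.7 below 150 bp, 34.3 at 150 to 200 bp, 44.2 at 250 to 450 bp and 44.8 at 500 bp or more, while in the whole list it was 24.9, 30.7, 39.0 and 50.7. The widest class of the 6 windows held 10 intervals, and it was the only class with a median below that of the list.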

How the data were processed

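The deposited file lists intervals of the TCF1 library with 1 score each and no header. Per the submitters' processing notes, positions are on mm9. The sources used here do not give what the authors did to make the score, how reads were aligned, how intervals were called and filtered, or whether the input entered. The list belongs to 1 library, so it is not a pooled call. Starts lie on a 50 bp grid (100%), scores move in steps of 0.25 (100%, relative tolerance 1e-06), and ends were read as inclusive. Positions count from 1. Per the labels' protocols, sorted cells were crosslinked and the library was amplified for 17 PCR cycles, which can favour some fragments. PCR duplicates and sequence present in many copies can raise a score, and no input value stands beside it.

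Windows were fixed by position. The members, windows and measures were chosen with earlier results of these data known. Same-size windows ran end to end from the locus window between the first and last interval of the chromosome. All 6 genes are named, with the 3 highest scores, the tallest, the widest and the closest pair of each window. The code for the measures was run on simulated data with a window of known density and height. The simulated intervals were placed at random and had equal widths, unlike those of the list, so this checked the code only. Alternatives changed the windows, the joining, the intervals kept and the measure. Values were computed in Python 3.11.15 with pandas 2.3.3, numpy 2.4.6 and scipy 1.17.1, and figures drawn with matplotlib 3.10.9.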

Additional observations from a re-analysis of the deposited data

How the results depend on the processing

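Among 83 alternative values, 75 remained near the reported one and 8 moved, and no ratio among the 8 crossed 1. Near meant within 1.5 times for counts and count ratios, and inside the order-statistic interval of the median for heights. For Tox that interval ran from its lowest to its highest height (10.9 to 40.0), and for Ikzf1 it was also wide (11.8 to 53.1). A height ratio that remained near therefore says little about stability in windows with few intervals. Restricted to the upper 50% by score, the ratio of the count to the median window rose to 4.50 for Gata3, 11.5 for Bcl11b and 2.67 for Ikzf1, from 2.67, 6.83 and 1.43. The cause was not tested. With score in place of height, the Satb1 median was 1.61 times that of its chromosome (1.07 by height), and its median width was 300 bp against 200 bp. The number of groups depends on the joining distance by construction: within 5 kb it was 13 for Bcl11b and 10 for Notch1, and within 20 kb 2 for Notch1 and 3 for Ikzf1. The height ratios of Gata3, Tox, Satb1 and Ikzf1 crossed 1 in 7 alternatives while staying inside their intervals, so these 4 have no stable direction. Since the read depth is unknown, low or missing intervals carry little weight. No paired analysis was possible because only 1 library was immunoprecipitated.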
